A study of Homo sapiens with 4 samples.

Results

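The genes examined encode histone demethylases outside the KDM5 family: KDM1A, KDM1B, KDM2A, KDM2B, KDM3A, KDM4A, KDM4B, KDM4C, KDM6A and KDM6B. H3K4me3, trimethylation of histone H3 at lysine 4, was read at every consensus peak annotated to one of these 10 genes and lying at most 5 kb from the annotated transcription start site (TSS). This rule took 36 of the 110018 consensus peaks, of which 34521 lie within 5 kb of a TSS, and 10 of the 18346 genes with such a peak. HCC1428, a luminal breast cancer line that is labelled wild type, was given 2.5 µM of C48, which the study describes as an inhibitor specific for KDM5. It was set against the same line given the vehicle DMSO, and both were collected on day 5. H3K4me3 was profiled by CUT&Tag, in which an antibody tethers the transposase Tn5 to the mark so that the neighbouring DNA is cut and sequenced. There were 2 C48 libraries and 2 DMSO libraries, called biological replicates in the labels. No source used here says that they were separate cultures, so the p-values reflect only how far these libraries differ, and that spread may be technical.

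H3K4me3 marks the nucleosomes on either side of active start sites, most densely over CpG-rich promoters, and the KDM5 enzymes remove it. None of the genes examined here encodes a KDM5 enzyme. KDM1A and KDM1B are flavin-dependent and act on mono- and dimethylated H3K4 but not on the trimethylated form. The others carry a JmjC domain and use iron and 2-oxoglutarate: the KDM2 enzymes act on lower methylation states of H3K36, KDM3A on those of H3K9, the KDM4 enzymes on trimethylated H3K9 and H3K36, and the KDM6 enzymes on H3K27. The data show the promoter mark at these genes and say nothing of their RNA or protein.

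Aligned tags numbered 58.4 and 72.7 M for C48 and 88.4 and 64.6 M for DMSO, and a tested peak of the demethylase genes rested on 123 to 11848 tags in a library, with a median of 1227. Values are given as scaled tags, that is HOMER tags per 10 M aligned tags after TMM scaling, a method that sets the bulk of the peaks at no change. A change common to all of the genome therefore cannot be seen, and every direction is relative to that bulk. The paper scaled on fly spike-in nuclei and reports fewer fly reads in C48 samples. It states that, without this scaling, H3K4me3 peaks of C48 samples would be counted too low. With spike-in scaling it reports more H3K4me3 at promoters in C48-treated HCC1428 cells. A lower value here therefore cannot be read as a loss in absolute terms, and the absolute direction at these genes cannot be given. All 6 luminal markers tested had H3K4me3 within 5 kb of their TSS (ESR1, GATA3, FOXA1, KRT8, KRT18 and EPCAM), with summed levels of 3328 and 3514 scaled tags in C48 cells and 5674 and 5633 in DMSO cells. All 6 were called lower, and their values lay on both sides of 0 when scaled on ribosomal protein promoters, where 3 of 6 were below 0. The basal keratins KRT5 and KRT14, the immune markers PTPRC and CD3E and the stromal and endothelial markers COL3A1 and PECAM1 had no peak there, and CDH5 stayed under 3 scaled tags in every library. COL1A1 had 840 and 878 scaled tags in C48 cells and 956 and 1014 in DMSO cells. TP63, a basal marker, had 40.5 and 41.8 scaled tags in C48 cells and 7.61 and 13.9 in DMSO cells. The part of these marker differences in the results on the demethylase genes was not tested.

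Lower H3K4me3 at the TSS together with at least 1 higher peak downstream in C48 cells was found at KDM1A, KDM2A, KDM4A, KDM4B and KDM6A. Among all genes tested, 67.3% had a lower sum within 0.5 kb. A higher sum from 0.5 to 5 kb, which is not the same measure as 1 higher peak, was found at 47.9% of all genes tested there. On that measure 3 of the 10 demethylase genes were higher. The share of all genes with the joint pattern was not counted. At KDM1A, KDM4A and KDM4B the summed signal from 0.5 to 5 kb was higher too, so the DNA under both positions is shown for these genes. For each, the first sequence is the RefSeq promoter (assembly GRCh38.p14, the same primary assembly as hg38), from 250 bases before to 50 after the annotated start, and the second is the hg38 sequence of the downstream peak inside intron 1, whole for KDM1A and its central 300 bases for KDM4A and KDM4B. Capitals mark CpG dinucleotides, and all sequences are from the plus strand, on which the genes lie.
KDM1A promoter, chr1:23019218-23019517, 36 CpG: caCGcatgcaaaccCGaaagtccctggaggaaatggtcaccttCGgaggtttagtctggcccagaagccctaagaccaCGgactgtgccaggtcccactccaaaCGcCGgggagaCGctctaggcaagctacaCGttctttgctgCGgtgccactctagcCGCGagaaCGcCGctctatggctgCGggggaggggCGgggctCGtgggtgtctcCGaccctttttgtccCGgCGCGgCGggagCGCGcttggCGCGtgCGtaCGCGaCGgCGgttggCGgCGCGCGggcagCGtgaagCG
KDM1A downstream peak, chr1:23020929-23021210, 3 CpG: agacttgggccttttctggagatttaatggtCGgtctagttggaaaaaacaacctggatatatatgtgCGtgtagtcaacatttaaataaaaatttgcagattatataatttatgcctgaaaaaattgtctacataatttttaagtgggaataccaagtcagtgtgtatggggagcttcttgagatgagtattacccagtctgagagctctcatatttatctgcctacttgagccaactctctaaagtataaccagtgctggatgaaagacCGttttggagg
KDM4A promoter, chr1:43649899-43650198, 21 CpG: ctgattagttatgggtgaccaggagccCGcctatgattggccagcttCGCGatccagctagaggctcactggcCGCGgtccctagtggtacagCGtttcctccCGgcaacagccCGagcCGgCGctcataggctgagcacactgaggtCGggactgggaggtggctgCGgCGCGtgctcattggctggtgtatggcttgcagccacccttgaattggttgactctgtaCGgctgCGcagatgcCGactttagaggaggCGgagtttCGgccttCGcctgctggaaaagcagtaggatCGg
KDM4A downstream peak, chr1:43651227-43651526, 5 CpG: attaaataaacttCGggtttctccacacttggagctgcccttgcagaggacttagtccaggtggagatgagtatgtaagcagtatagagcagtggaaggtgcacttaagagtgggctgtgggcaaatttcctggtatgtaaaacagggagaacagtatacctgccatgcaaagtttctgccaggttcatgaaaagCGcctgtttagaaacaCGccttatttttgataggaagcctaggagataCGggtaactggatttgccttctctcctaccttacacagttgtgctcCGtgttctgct
KDM4B promoter, chr19:4968863-4969162, 43 CpG: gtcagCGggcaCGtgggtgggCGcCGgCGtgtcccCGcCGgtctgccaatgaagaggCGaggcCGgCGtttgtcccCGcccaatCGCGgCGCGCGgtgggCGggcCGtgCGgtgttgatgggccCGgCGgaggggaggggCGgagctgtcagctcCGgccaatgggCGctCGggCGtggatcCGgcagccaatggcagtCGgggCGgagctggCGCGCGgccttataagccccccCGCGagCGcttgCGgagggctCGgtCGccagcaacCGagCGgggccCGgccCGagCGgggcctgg
KDM4B downstream peak, chr19:4971142-4971441, 7 CpG: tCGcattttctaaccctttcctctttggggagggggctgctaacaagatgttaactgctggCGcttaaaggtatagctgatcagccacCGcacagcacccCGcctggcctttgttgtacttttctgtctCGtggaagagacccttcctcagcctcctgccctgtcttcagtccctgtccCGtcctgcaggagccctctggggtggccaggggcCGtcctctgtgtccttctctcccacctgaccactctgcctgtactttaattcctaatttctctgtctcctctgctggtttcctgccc
In each pair the promoter is dense in CpG and the downstream stretch shown holds few. The whole KDM4B downstream peak, 881 bases long, holds 3.63 CpG per 100 bases, beside a median of 3.83 for all tested peaks at 1.5 to 2.5 kb.

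Summed over all peaks within 5 kb, H3K4me3 was lower in C48 cells at all 10 genes under TMM scaling with 0.453 (KDM1B) to 0.849 (KDM4B) times the DMSO level. The log2 fold change of C48 over DMSO ran between -1.14 at KDM1B and -0.24 at KDM4B (limma-trend, Benjamini-Hochberg adjusted p of at most 0.000171), and both C48 libraries lay below both DMSO libraries at each gene. How many of all genes show such separation was not counted. The direction depends on the scaling: 10 of 10 were called lower with DESeq2 size factors, 7 lower and 1 higher per 10 M tags as deposited, 6 lower and 2 higher (KDM4A and KDM4B) on the library total, and 1 lower and 8 higher when scaled on ribosomal protein promoters. These scalings moved the median of all gene sums by -0.06, 0.33, 0.38 and 0.77 on the log2 scale. A lower sum was also the common case in the whole table, where 60.7% of 15602 genes were called lower and 21.5% higher with a median of -0.32, beside a median of -0.51 for the demethylase genes. With TMM the split over all genes was 3348 higher and 9470 lower. It was 6171 and 5810 with the deposited scaling, 6672 and 5322 with library totals and 12450 and 810 with ribosomal protein promoters as the base.

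The levels differed widely between the genes. The 5 kb sum in DMSO cells placed KDM6A at percentile 99.4 and KDM2A at percentile 99.2 of all genes tested, KDM6B at 92.0, KDM3A at 85.5, KDM1B at 79.5, KDM4B at 78.9, KDM1A at 77.9, KDM4C at 69.9 and KDM4A at 57.7, with KDM2B lowest at 34.1. Neighbours in this order can lie close together, as KDM1B does with 723 and 691 scaled tags in its DMSO libraries and KDM4B with 676 and 708. Such sums are not per length and count every peak of a gene, of which KDM2A has 7 and KDM1A has 2. KDM1B had the most extreme fold change of the 10, at percentile 0.647 of all genes.

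The start sites and the DNA beside them differed. In the core, taken as peaks with a centre within 0.5 kb of the TSS, all 9 genes with such a peak were called lower with a median log2 fold change of -1.03, against -0.42 over all genes, of which 67.3% were lower and 16.6% higher. KDM6B has no core peak at the TSS the table uses. The core count of 9 was 8 with the deposited scaling and with library totals, and 5 with ribosomal protein promoters as the base, where 1 gene, KDM2B, was called higher. Over all cores the split was 2236 higher and 9090 lower with TMM, 4355 and 6096 with the deposited scaling, 4750 and 5686 with library totals, and 9573 and 1258 with ribosomal protein promoters as the base. In the flank, from 0.5 to 5 kb, KDM1A, KDM4A and KDM4B were called higher, KDM1B, KDM3A, KDM4C, KDM6A and KDM6B lower, and KDM2A and KDM2B were not called. Over all genes 47.9% of flanks were higher and 27% lower, with a median of 0.23, against -0.26 for the 10 genes. The flank counts of 3 higher and 5 lower became 4 and 4 with the deposited scaling, 4 and 3 with library totals, and 9 and 0 with ribosomal protein promoters as the base. The KDM3A flank call (-0.38) was lost with the deposited scaling (-0.045, adjusted p = 0.405), with library totals (-0.0042), and, at -0.09 in both, with called peaks alone (adjusted p = 0.202) and with a core of 1 kb (adjusted p = 0.208). The split over all flanks, 3665 higher and 2066 lower with TMM, became 5207 and 984 with the deposited scaling, 5429 and 879 with library totals and 7000 and 127 with ribosomal protein promoters as the base.

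**Figure D1:**
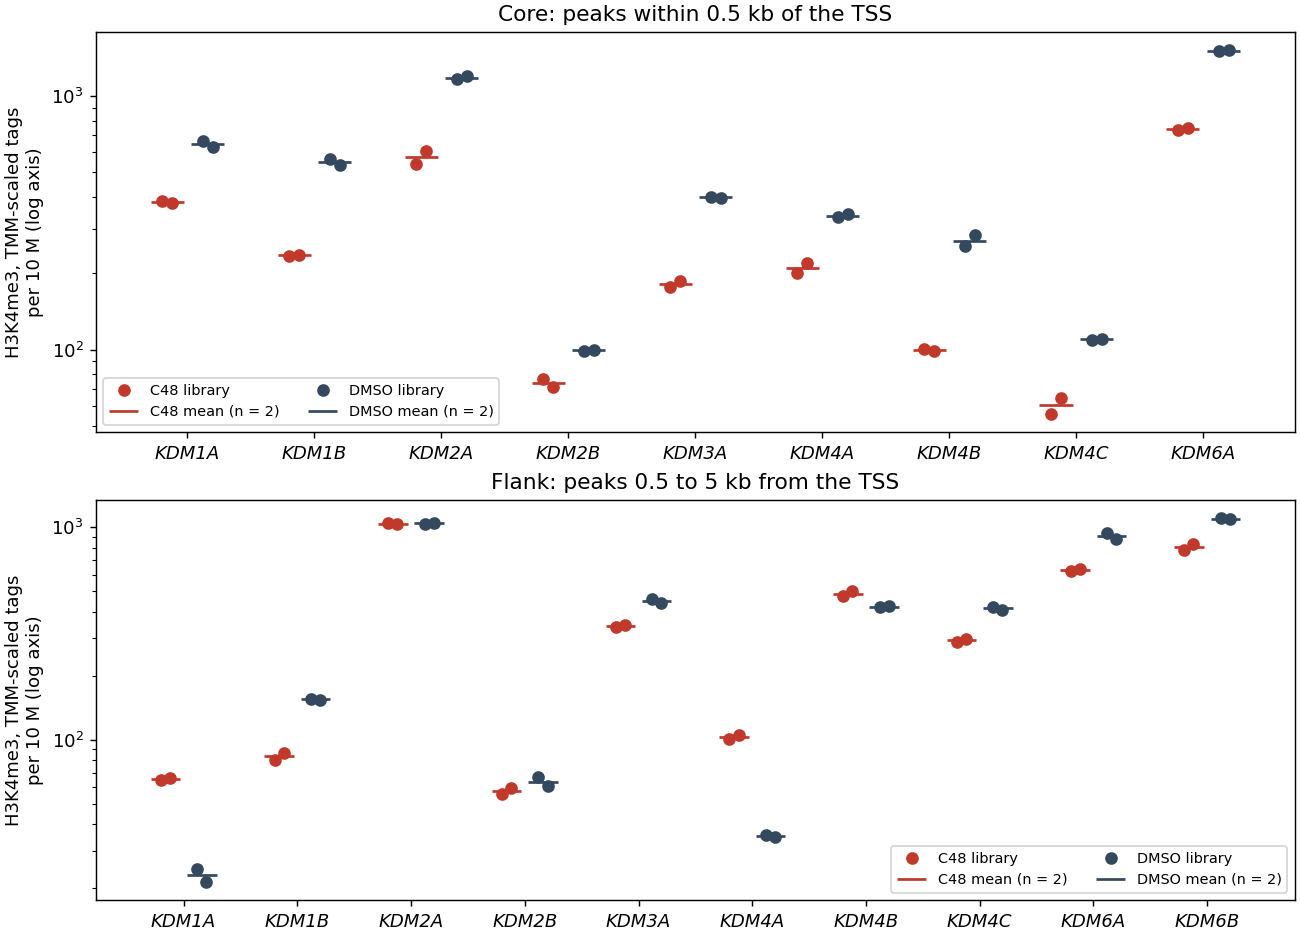
H3K4me3 (y axis: tags per 10 M after TMM scaling, log axis) summed over core peaks (upper panel) and flank peaks (lower panel) of each gene (x axis). Points are single libraries, C48 in red left of DMSO in dark blue, and lines are means of 2 libraries. In the core every C48 point lies below every DMSO point of its gene, and the share of all genes with such separation was not counted. In the flank C48 lies above DMSO at KDM1A, KDM4A and KDM4B and overlaps it at KDM2A.

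HOMER, the authors' peak caller, had called 24 of the 36 peaks in at least 1 of the 4 libraries, 15 of them in all 4. Of these 24, 2 (8.33%) were called in both C48 libraries and no DMSO library, and 3 (12.5%) in both DMSO libraries and no C48 library. Over all 45692 consensus peaks with a call these numbers were 5533 (12.1%) and 1193 (2.61%). Counts of 2 and 3 are too small to give an order. Of the 24 called peaks, 5 were higher, 15 lower and 4 not called different by limma, with a median log2 fold change of -0.53. Over the 33816 called peaks tested, 35.8% were higher and 37.0% lower, with a median of 0.04. In the same fit over all consensus peaks, 35 of the 36 were tested, 7 were higher, 23 lower and 5 not called, beside 36.8% higher and 34.6% lower over the 43320 peaks. The peak left out, a KDM2B peak 143 bases upstream of a TSS, had 1.66 and 2.46 scaled tags in C48 cells and 1.65 and 2.44 in DMSO cells, below the minimum mean of 5. The values of the 11 tested peaks that HOMER called in none of these libraries are from the fit over all consensus peaks. For called peaks the split was 12102 higher and 12507 lower with TMM, 18192 and 7917 with the deposited scaling, 19071 and 7330 with library totals, and 27835 and 1744 with ribosomal protein promoters as the base.

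**Figure D2:**
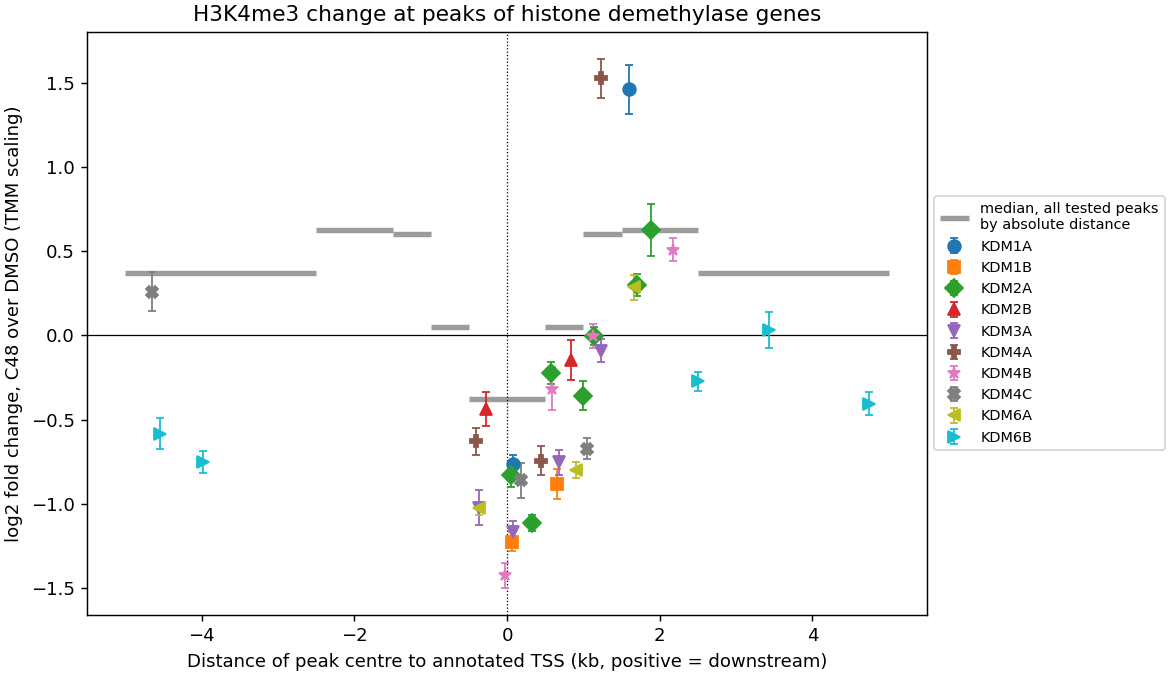
Log2 fold change of C48 over DMSO (y axis, TMM scaling) of the 35 tested peaks against the distance of the peak centre to the annotated TSS (x axis, kb, positive downstream). Symbols are genes, bars are 1 standard error of the limma fit with 2 libraries per group, and grey lines are medians of all tested peaks at that absolute distance. All 12 peaks within 0.5 kb lie below 0 (-0.44 to -1.42) and the 5 peaks 1.5 to 2.5 kb downstream lie above 0 (0.28 to 1.46).

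KDM1A, also called LSD1, is the flavin-dependent H3K4me1 and H3K4me2 demethylase of the CoREST complex. Its promoter peak on chromosome 1 (23018902 to 23020194, hg38, 80 bases downstream of the TSS) had 386 and 377 scaled tags in C48 cells and 663 and 632 in DMSO cells. Both C48 libraries were well below both DMSO libraries (log2 fold change -0.76, SE 0.049, adjusted p = 2.93e-23). The start of TEX46 lies within 1 kb of this peak, so the signal cannot be given to KDM1A alone. The downstream peak in intron 1 (23020929 to 23021210, 1601 bases from the TSS), whose sequence is shown above, had 64.4 and 65.8 scaled tags in C48 cells and 24.7 and 21.4 in DMSO cells. Here the C48 libraries were the high ones, without overlap (1.46, SE 0.14, adjusted p = 9.72e-15), and HOMER had called this peak in both C48 libraries and in no DMSO library. Under ribosomal protein scaling the promoter peak came to 0.02 and the 5 kb sum, -0.58 with TMM, to 0.19.

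KDM1B, or LSD2, acts on the same methylation states and is known from mouse for its part in setting DNA methylation imprints in oocytes. Its promoter peak on chromosome 6 (18155112 to 18155856, 62 bases from the TSS) had 234 and 237 scaled tags in C48 cells and 567 and 537 in DMSO cells. The C48 libraries were close to each other and far below both DMSO libraries (-1.22, SE 0.055, adjusted p = 1.34e-31). The neighbouring peak (18155937 to 18156222), which the table annotates to the promoter of TPMT, a gene for a drug-metabolizing methyltransferase that starts within 1 kb, had 80.6 and 86.7 scaled tags in C48 cells and 156 and 154 in DMSO cells. That peak too was lower without overlap (-0.88, SE 0.087, adjusted p = 1.08e-13), and HOMER had called it in none of the 4 libraries. The start of TPMT also lies within 1 kb of the promoter peak, so neither signal can be given to KDM1B alone. KDM1B was the gene whose 5 kb sum stayed called lower under every scaling, at -0.37 on ribosomal protein promoters and -1.14 with TMM.

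KDM2A binds unmethylated CpG DNA through a CXXC zinc finger and demethylates H3K36me2. It has peaks at 2 annotated starts on chromosome 11, and at both the fold change went up with each step downstream. At the upstream start the peak 327 bases in (67119129 to 67120051) had 386 and 435 scaled tags in C48 cells and 870 and 907 in DMSO cells, a clear fall (-1.11, SE 0.048, adjusted p = 8.54e-33). The peak at 1001 bases had 112 and 103 scaled tags in C48 cells and 145 and 130 in DMSO cells (-0.36, adjusted p = 0.000238), a call that was lost with the deposited scaling (-0.024, adjusted p = 0.811) and without a filter (adjusted p = 0.0883). The peak at 1708 bases had 286 and 266 scaled tags in C48 cells and 230 and 218 in DMSO cells, higher without overlap (0.30, adjusted p = 3.39e-05). At the downstream start the log2 fold changes were -0.83 at 47 bases, -0.22 at 574, -0.0029 at 1135 and 0.63 at 1883. The peak at 574 bases lost its call without DMSO replicate 1 (-0.15, adjusted p = 0.103) and without a filter (adjusted p = 0.136), and so did the peak at 1883 bases without a filter (adjusted p = 0.111). The peak at 1135 bases had 393 and 402 scaled tags in C48 cells and 375 and 423 in DMSO cells, so the groups overlapped there.

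Over the whole gene, KDM2A had core sums of 540 and 609 scaled tags in C48 cells and 1164 and 1196 in DMSO cells, while its flank sums were 1044 and 1039 in C48 cells and 1043 and 1045 in DMSO cells. The flank sums of the groups could not be told apart under TMM scaling (-0.0034, SE 0.035, adjusted p = 0.936), and came to 0.33 per 10 M tags.

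KDM2B, the CXXC protein that brings the PRC1.1 Polycomb complex to CpG islands, had the lowest 5 kb sum of the 10 genes. The peak 279 bases upstream of the TSS on chromosome 12 (121580201 to 121580849) had 75.2 and 68.6 scaled tags in C48 cells and 97.7 and 97.4 in DMSO cells, lower without overlap (-0.44, SE 0.10, adjusted p = 0.000107), and the peak 837 bases downstream had 55.3 and 59.3 in C48 cells and 66.5 and 60.5 in DMSO cells (-0.14, SE 0.12, adjusted p = 0.264), not overlapping but not past the threshold. The divergent transcript KDM2B-DT starts within 1 kb of both peaks. The upstream peak lost its call per 10 M tags (-0.10) and was at 0.33 on ribosomal protein promoters, and the 5 kb sum of -0.31 came to 0.02 per 10 M tags.

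KDM3A demethylates H3K9me2 and H3K9me1 and is a known hypoxia-responsive gene and coactivator of nuclear receptors. Its TSS peak on chromosome 2 (86441285 to 86441782) had 125 and 135 scaled tags in C48 cells and 295 and 291 in DMSO cells. The C48 libraries lay below both DMSO libraries (-1.17, SE 0.070, adjusted p = 9.41e-25), and the fold change was still -0.40 on ribosomal protein promoters. The upstream peak at 365 bases was lower as well (-1.02). Downstream the change shrank, to -0.75 at 680 bases and -0.09 at 1231 bases. The last of these had 210 and 216 scaled tags in C48 cells and 232 and 222 in DMSO cells, a difference that did not pass the test (adjusted p = 0.220). With DESeq2 size factors it was called lower (-0.15, adjusted p = 0.0365).

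KDM4A and its paralogues carry JmjC and Tudor domains and act on H3K9me3 and H3K36me3. The KDM4A peak at 439 bases on chromosome 1 (43650349 to 43650827) had 88.8 and 105 scaled tags in C48 cells and 160 and 165 in DMSO cells (-0.74, SE 0.087, adjusted p = 6.79e-12). The peak 408 bases upstream was lower too (-0.63), and a protein-coding GENCODE gene without a symbol starts within 1 kb of both. The downstream peak at 1228 bases (43651163 to 43651591) had 101 and 106 scaled tags in C48 cells and 35.6 and 34.7 in DMSO cells. This was the largest rise among the 35 peaks, with no overlap of the groups (1.53, SE 0.12, adjusted p = 1.55e-19). HOMER had called this peak in 1 of the 4 libraries, C48 replicate 2. The 5 kb sum of KDM4A adds both kinds of peak and was -0.25 with TMM, 0.08 per 10 M tags and 0.52 with ribosomal protein promoters as the base.

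KDM4B, a known target and coactivator of oestrogen receptor alpha in breast cancer cells, had the largest fall at a TSS. The peak at its start on chromosome 19 (4968871 to 4969303, 26 bases upstream) had 100 and 99.2 scaled tags in C48 cells and 255 and 284 in DMSO cells (-1.42, SE 0.076, adjusted p = 1.64e-27). HOMER had called it in both DMSO libraries and in no C48 library. Downstream the order was the same as at KDM2A: -0.32 at 595 bases, -0.0035 at 1126 and 0.51 at 2179. The last peak (4970852 to 4971732) had 253 and 262 scaled tags in C48 cells and 169 and 193 in DMSO cells, higher without overlap (SE 0.069, adjusted p = 9.10e-10), and HOMER had called it in both C48 libraries and in no DMSO library. The call at 595 bases was lost without C48 replicate 1 (-0.17, adjusted p = 0.369), without DMSO replicate 1 (-0.23, adjusted p = 0.169), without a filter (adjusted p = 0.261), with the DESeq2 Wald test (-0.32, adjusted p = 0.108) and with the deposited scaling (0.014, adjusted p = 0.926). The flank sum of 475 and 501 scaled tags in C48 cells, against 421 and 425 in DMSO cells (0.21, adjusted p = 0.000499), rests on the peak at 2179 bases: with an outer limit of 2 kb it was -0.07 (adjusted p = 0.354).

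KDM4C showed the least shift along the gene of the KDM4 genes. On chromosome 9, the peak at 178 bases had 55.9 and 64.7 scaled tags in C48 cells and 110 and 110 in DMSO cells (-0.86, SE 0.10), and the stronger peak at 1051 bases (6757903 to 6758900) had 219 and 229 in C48 cells and 369 and 344 in DMSO cells (-0.67, SE 0.061, adjusted p = 3.99e-16). Both were lower without overlap. HOMER had called the peak at 178 bases in none of the 4 libraries, and the core sum of KDM4C rests on this peak alone. An intergenic peak 4654 bases upstream, beside the start of a long noncoding RNA, had 70.6 and 69.7 scaled tags in C48 cells and 51.9 and 65.9 in DMSO cells (0.26, adjusted p = 0.0416). That call was lost without DMSO replicate 1 (0.09, adjusted p = 0.550), without either C48 library (adjusted p = 0.145 and 0.113) and with DESeq2 (size factors 0.20, Wald test adjusted p = 0.139), and over all alternatives the adjusted p ran between 2.78e-14 and 0.550.

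KDM6A, or UTX, demethylates H3K27me3 and H3K27me2 and is a subunit of the KMT2C and KMT2D complexes that methylate H3K4 at enhancers. Its promoter peak on chromosome X (44872343 to 44873262, 373 bases upstream) was the strongest of the 36, in DMSO cells also per base of peak, with 733 and 747 scaled tags in C48 cells and 1503 and 1515 in DMSO cells. The libraries of a group differed little and the groups lay far apart (-1.03, SE 0.037, adjusted p = 6.50e-37). The peak at 909 bases (44873633 to 44874536) was lower (-0.80, SE 0.047), and the peak at 1665 bases had 202 and 201 scaled tags in C48 cells and 166 and 165 in DMSO cells, higher without overlap (0.28, SE 0.072, adjusted p = 0.000378). HOMER had called the peak at 1665 bases in none of the 4 libraries. The flank sum therefore depends on where the core ends: it was -0.53 with a core of 0.5 kb and 0.28 with a core of 1 kb, which puts the peak at 909 bases in the core.

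KDM6B, or JMJD3, removes the same H3K27 marks and is known for its induction by inflammatory signals in macrophages. Its 5 peaks lie between 2501 and 4746 bases from the start in the table, 2 upstream and 3 downstream, and none of them was called higher with TMM. The peak 3987 bases upstream on chromosome 17 (7835534 to 7836305) had 182 and 202 scaled tags in C48 cells and 329 and 320 in DMSO cells (-0.75, SE 0.065, adjusted p = 3.33e-17). The peak at 4746 bases downstream (7844365 to 7844961) had 185 and 188 scaled tags in C48 cells and 248 and 246 in DMSO cells (-0.40, adjusted p = 2.07e-07), a call lost with the deposited scaling (-0.07, adjusted p = 0.328). HOMER had called both of these in both DMSO libraries and in no C48 library. The peak at 3430 bases had 69.6 and 78.1 scaled tags in C48 cells and 74.4 and 69.6 in DMSO cells, where the groups overlapped (0.03, adjusted p = 0.783). It was called higher with the deposited scaling (0.37, adjusted p = 0.0020), with library totals (0.41, adjusted p = 0.00052) and on ribosomal protein promoters (0.80, adjusted p = 1.9e-10).

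Distances depend on the annotated start that is used. Of the 23 peaks more than 0.5 kb from the start in the table, 9 lie within 0.5 kb of another GENCODE start of their gene, at KDM2A (3 peaks), KDM3A (2 peaks), KDM2B, KDM4C, KDM6A and KDM6B (1 peak each), and none at KDM1A, KDM1B, KDM4A and KDM4B. For KDM6B, GENCODE also has a start at 7834217, and the 2 upstream peaks lie 1144 and 1702 bases downstream of it, beside the starts of 2 long noncoding RNAs. The 5 kb sum of KDM6B was -0.44 with TMM and 0.34 on ribosomal protein promoters.

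By distance, the 12 peaks within 0.5 kb of a TSS were all called lower (median -0.94), beside a median of -0.38 for all 16854 tested peaks at that distance, of which 61.7% were lower. From 0.5 to 1 kb the median of the 6 demethylase peaks was -0.53, beside 0.05 for all peaks, and from 1 to 1.5 kb it was -0.05 for 6 peaks, beside 0.60. From 1.5 to 2.5 kb all 5 peaks were called higher (median 0.51), beside 0.63 for all peaks, of which 62.8% were higher. Of these 5, the KDM2A peak at 1708 bases lies within 0.5 kb of another GENCODE start of its gene. HOMER had called the KDM2A peak at 1883 bases and the KDM6A peak at 1665 bases in no library. The 6 peaks from 2.5 to 5 kb, which are the KDM6B peaks and the upstream KDM4C peak, had a median of -0.34, beside 0.37. At each of these distances the median of the demethylase peaks was the lower of the pair, and no test was made of these differences. Beyond 0.5 kb the demethylase peaks were also the stronger ones. Their median signal over these distances was 148, 204, 184 and 158 scaled tags, beside 77.3, 45.4, 35.8 and 27.3 for all peaks. The part of signal strength in the lower medians was not tested. Neighbouring peaks of a gene were paired where successive annotated starts lay at most 5 kb apart, so a pair can span different starts. Each distance is from the peak's own start. Of 21 such pairs, the farther downstream peak had the higher fold change in 18 (85.7%). Over all genes it did so in 4708 of 6731 pairs (69.95%), with a median step of 0.42 in both.

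Relative to its own core, the flank gained signal at all 9 genes that have both. The flank sum was 16.9% and 17.7% of the core sum at KDM1A in the C48 libraries and 3.87% and 3.54% in the DMSO libraries (log2 fold change of the ratio 2.22, SE 0.14, adjusted p = 4.98e-12). At KDM4A it was 50.4% and 48.4% in C48 cells and 11.0% and 10.4% in DMSO cells (2.21, SE 0.11, adjusted p = 2.82e-13). In C48 cells the ratio was 4.66 times that in DMSO cells at KDM1A and 4.62 times at KDM4A, without overlap. KDM4B had 469% and 502% in C48 cells and 164% and 149% in DMSO cells (1.63), and KDM2A 193% and 171% in C48 cells and 89.6% and 87.3% in DMSO cells (1.04). The rise was smaller at KDM3A (0.75), KDM6A (0.49), KDM4C (0.36), KDM1B (0.34) and KDM2B (0.28).

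A ratio within a library hardly moves with the scaling of that library: the median ratio change over the 9 genes was 0.75 with TMM, with the deposited scaling and with ribosomal protein promoters as the base. The count of 9 called genes was 8 on ribosomal protein promoters, where KDM2B lost its call (0.28, adjusted p = 0.0527). The KDM1B flank and the KDM4C core each rest on a peak that HOMER called in none of the 4 libraries. With called peaks alone 7 genes could be tested, and 6 of them were called higher. A higher ratio was also the rule elsewhere, at 74.7% of 5598 genes against 7.36% lower, with a median of 0.69, and the 9 of 9 is to be read against that share. The KDM2B call (adjusted p = 0.0458) was also lost without a filter (adjusted p = 0.0675), with called peaks alone (adjusted p = 0.0576), without C48 replicate 2 (0.18, adjusted p = 0.367), and without DMSO replicate 2 (0.21, adjusted p = 0.179). The KDM4C call was lost without C48 replicate 1 (0.28, adjusted p = 0.0846) and with an outer limit of 2 kb (0.19, adjusted p = 0.110).

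**Figure D3:**
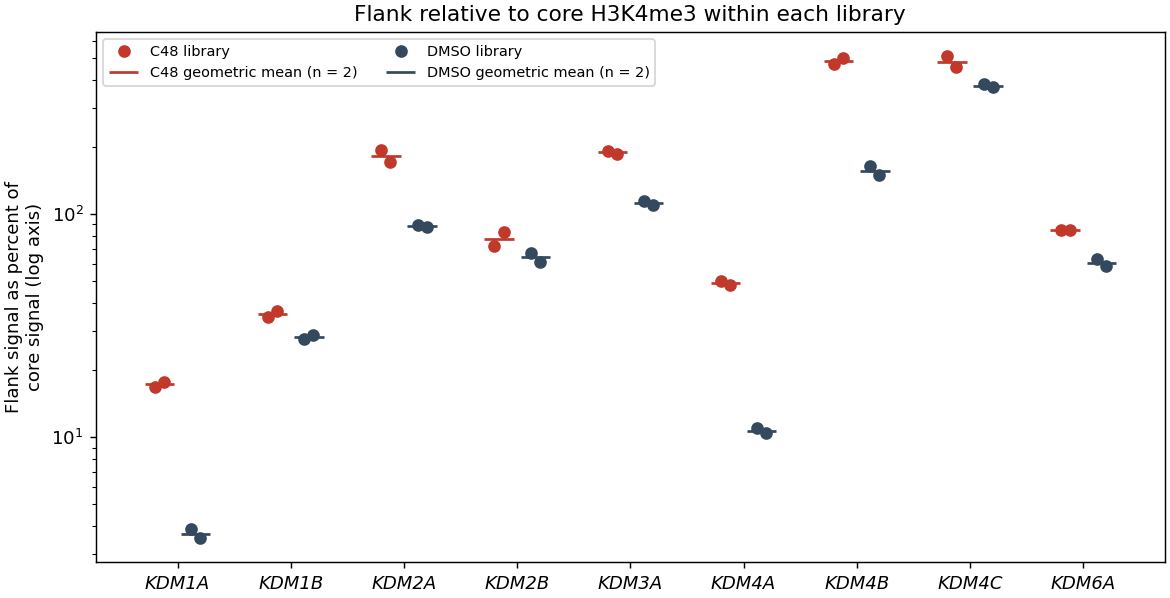
Flank signal (0.5 to 5 kb from the TSS) as a percentage of core signal (within 0.5 kb) in each library (y axis, log axis) for the 9 genes with both (x axis). Points are libraries, C48 in red left of DMSO in dark blue, and lines are geometric means of 2 libraries. Both C48 points lie above both DMSO points at every gene, most widely at KDM1A (16.9% and 17.7% against 3.87% and 3.54%) and KDM4A. The share of all genes with such separation was not counted.

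The change also went with the sequence under the peak. Across the 35 peaks, which share the same 4 libraries and of which several come from 1 gene, the log2 fold change fell with CpG density (Pearson r = -0.74, Spearman rho = -0.755). Within the 12 peaks at the TSS r was -0.71 and among the 23 others -0.69, and over all 27119 tested peaks within 5 kb it was -0.54. The densest peak, the KDM4B start with 15.9 CpG per 100 bases, had the deepest fall (-1.42), and the peaks with the largest rises held 1.40 (KDM4A at 1228 bases) and 1.06 (KDM1A at 1601 bases). The 5 peaks at 1.5 to 2.5 kb, all higher, held 1.06 to 3.63 CpG per 100 bases, whereas the 6 peaks at 2.5 to 5 kb, of which 4 were lower, held 5.56 to 9.05. The fold change also fell with signal, with r = -0.49 against the log2 mean signal of the 35 peaks and -0.59 over all peaks within 5 kb. CpG density, distance and signal move together here, and their separate parts in the change were not tested.

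**Figure D4:**
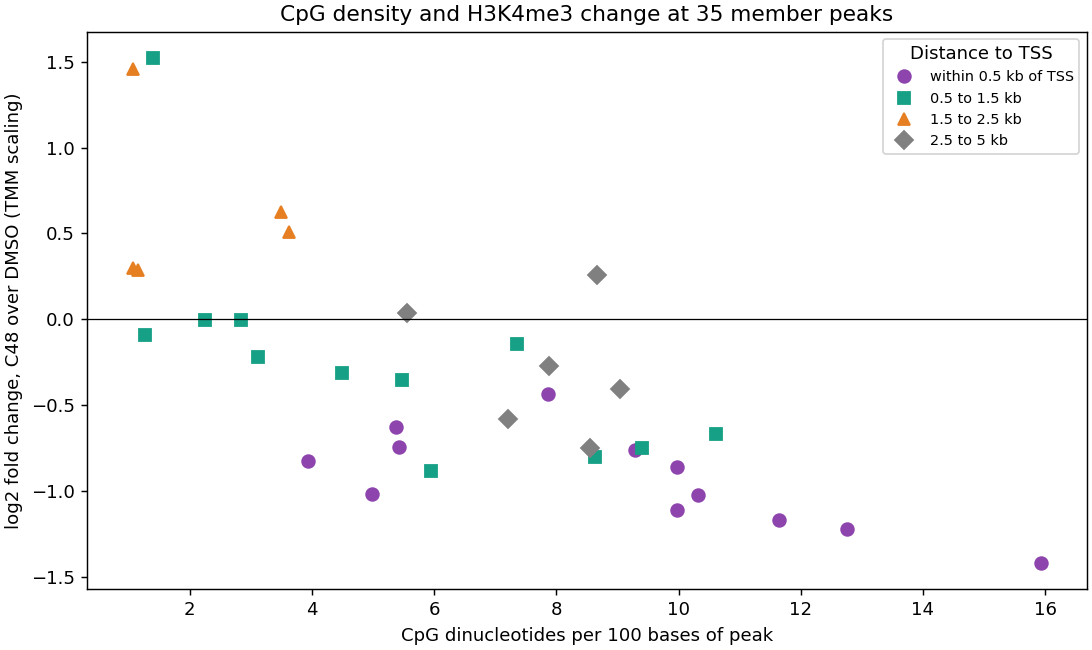
Log2 fold change of C48 over DMSO (y axis, TMM scaling) against CpG dinucleotides per 100 bases of peak (x axis) for the 35 tested peaks. Symbols give the distance to the TSS. Peaks with few CpG at 1.5 to 2.5 kb lie above 0, and the densest peak, at 15.9 CpG per 100 bases, lies lowest at -1.42.

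Taken by the median, the promoters themselves are CpG-rich. RefSeq lists 16 promoter windows of 300 bases for the 10 genes, with a median of 29 CpG and 66.5% GC, beside 14 CpG and 58.7% GC over 35116 RefSeq promoters. The windows ran from 2 CpG and 53% GC (KDM6B, 7839667 to 7839966) to 46 CpG (KDM2B), and a KDM2A window held 12. The GC box GGGCGG, searched on both strands, was in 11 of the 16 and in 44.95% of all promoters. The TATA box letters TATAAA were in none of the 16 and in 11.5% of all, and the ETS core CCGGAAG was in 2 (KDM2B and KDM4C) and in 10.3% of all. The NRF1 motif was in none and in 1.24% of all. These are matches of letters in a window and not sites shown to be bound.

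Partners and opponents of these enzymes changed in the same direction for the most part, as did most genes in the table. Over all genes 60.7% were called lower and 21.5% higher in the 5 kb sum, and the counts of each list are to be read against these shares. Of 11 partners of KDM1A and KDM1B, 8 had a lower 5 kb sum, among them the CoREST scaffold RCOR1 (624 and 626 scaled tags in C48 cells, 1291 and 1220 in DMSO cells, -1.0), HMG20B (-1.18) and the KDM1B cofactor GLYR1 (-0.94). RCOR2 (0.31) and ZNF217 (1.05) were higher. Of 8 PRC1.1 genes listed as partners of KDM2B, 6 were tested and all 6 were lower, with SKP1 at -0.81, the deubiquitinase USP7 at -0.63 and RYBP at -1.27. Of 8 COMPASS partners of KDM6A, 7 were lower, including NCOA6 (-0.88), the H3K4 methyltransferase KMT2D (-0.60) and PAXIP1 (-0.54).

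Of 10 tested methyltransferases for H3K9, H3K27 and H3K36, which write the marks that the KDM3, KDM4, KDM6 and KDM2 enzymes erase, 9 were lower, among them SUV39H2 (-0.92), ASH1L (-0.94) and EZH2 (-0.85). Of 9 further JmjC genes tested, 8 were lower, among them KDM3B (329 and 375 scaled tags in C48 cells, 669 and 638 in DMSO cells, -0.89), JMJD6 (-0.71) and JMJD1C (-0.39). The list medians were -0.69 for the KDM1 partners, -0.54 for PRC1.1, -0.47 for COMPASS, -0.75 for the methyltransferases and -0.39 for the JmjC genes, beside -0.32 over all genes, and all 5 turned above 0 on ribosomal protein promoters (0.09, 0.24, 0.31, 0.02 and 0.39).

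The genes of the inhibited enzymes stood in the same range. The 5 kb sum of KDM5A was 796 and 831 scaled tags in C48 cells and 1124 and 1063 in DMSO cells (-0.43), and the sums of KDM5B (-0.49) and KDM5C (-0.56) were likewise lower, all 3 turning above 0 on ribosomal protein promoters (0.35, 0.28 and 0.22). KDM5A also had a flank that was higher (0.94) over a core that was lower (-0.51).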

How the data were processed

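H3K4me3 was measured by CUT&Tag in 4 libraries of HCC1428 cells, grouped by the sample titles. The authors aligned reads to hg38, and to dm6 for fly spike-in nuclei, with Bowtie2 2.3.4.1, called peaks in each library with HOMER (version not given in the sources used here) and merged and annotated them. Per the file headers, the deposited signal of a peak is its HOMER tags per 10 M aligned tags, without spike-in scaling; spike-in data were not used here, so a genome-wide change cannot be seen. 100% of values were whole multiples of the value of 1 tag (within 0.1 tags). The deposited repeat table and HOMER's merged peak score were not used.

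Values were scaled with TMM factors (edgeR 4.0.16) over the 43712 peaks with a mean of at least 5, and log2(scaled value + 1), a scale that understates changes of weak peaks, was tested by limma-trend in limma 3.58.1 under R 4.3.3, at a mean of at least 5 and a Benjamini-Hochberg adjusted p below 0.05. Peaks were tested where at least 1 of the 4 libraries had a call. Gene sums took every peak of a gene within 5 kb, 0.5 kb (core) or 0.5 to 5 kb (flank), and ratios took the log2 difference of flank and core. The fits were tested on simulated data, after which the ratio fit was given a variance trend on the weaker sum. The edgeR quasi-likelihood test on recovered tags, run because the values are whole tags, called 24542 peaks (limma 24609). Alternatives were other scalings, pseudocounts, filters, windows, peak sets, DESeq2 1.42.0, a replicate block and leaving out each library.

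The genes and lists were chosen with earlier results of these data known. Named genes are the 10 demethylase genes with all their peaks, KDM5A, KDM5B and KDM5C, and from each list the 3 genes with the smallest p in the 5 kb sum; RCOR2 and ZNF217 were added after their values were seen. Some listed genes are not reported here. Starts of other genes are from GENCODE, promoter sequences from RefSeq (GRCh38.p14) and peak sequences from hg38. Tags are not independent molecules, so tag numbers describe depth only. Python 3.11.15, pandas 2.3.3 and matplotlib 3.10.9 made tables and plots.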

Additional observations from a re-analysis of the deposited data

How the results depend on the processing

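Library scaling moved directions most, since a change of scaling shifts all log2 fold changes alike. Changed in sign, and called in at least 1 of the pair of fits, per 10 M tags as deposited were, in 5 kb sums KDM2B 0.023, KDM4A 0.084 and KDM4B 0.10. In flank sums it was KDM2A 0.33. In peaks (distance to the TSS in bases) they were KDM2A 0.11 at 574, 0.33 at 1135, KDM3A 0.24 at 1231, KDM4B 0.014 at 595, 0.33 at 1126 and KDM6B 0.062 at 2501. On the library total they were, in 5 kb sums KDM2B 0.064, KDM4A 0.12 and KDM4B 0.14. In flank sums it was KDM2A 0.37. In peaks (distance to the TSS in bases) they were KDM2A 0.017 at 1001, 0.15 at 574, 0.37 at 1135, KDM3A 0.29 at 1231, KDM4B 0.055 at 595, 0.37 at 1126 and KDM6B 0.10 at 2501. On ribosomal protein promoters they were, in 5 kb sums KDM1A 0.19, KDM2A 0.32, KDM2B 0.46, KDM3A 0.088, KDM4A 0.52, KDM4B 0.54, KDM4C 0.21, KDM6B 0.34, KDM5A 0.35, KDM5B 0.28, KDM5C 0.22, JMJD6 0.071, JMJD1C 0.39, USP7 0.14, KMT2D 0.18 and PAXIP1 0.23. In core sums they were KDM1A 0.015, KDM2B 0.34, KDM4A 0.091, KDM5A 0.27 and KDM5C 0.22. In flank sums they were KDM2A 0.77, KDM2B 0.62, KDM3A 0.39, KDM4C 0.28, KDM6A 0.24, KDM6B 0.34 and KDM5B 0.28. In peaks (distance to the TSS in bases) they were KDM1A 0.015 at 80, KDM2A 0.41 at 1001, 0.55 at 574, 0.77 at 1135, KDM2B 0.62 at 837, 0.33 at -279, KDM3A 0.021 at 680, 0.68 at 1231, KDM4A 0.14 at -408, 0.028 at 439, KDM4B 0.45 at 595, 0.77 at 1126, KDM4C 0.10 at 1051 and KDM6B 0.19 at -4545, 0.022 at -3987, 0.50 at 2501, 0.37 at 4746. The genes called lower then numbered 6 of 10 on the library total and 1 on ribosomal protein promoters for the 5 kb sum, 5 of 9 on ribosomal protein promoters for the core, and 3 and 0 for the flank, with 9 flanks higher on ribosomal protein promoters. Called in neither fit, the KDM2B flank, which is its peak at 837 bases, also changed sign (0.19 per 10 M tags, 0.23 on the library total), and with DESeq2 size factors the KDM6B peak at 3430 bases did (-0.029). Calls lost with no change of sign numbered 6 per 10 M tags, 8 on the library total, 10 on ribosomal protein promoters, 1 with DESeq2 size factors and 2 with the DESeq2 Wald test. Calls were gained with no change of sign at the KDM6B peak at 3430 bases per 10 M tags, on the library total and on ribosomal protein promoters. The KDM3A peak at 1231 bases gained one with DESeq2 size factors.

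Peak choice and windows moved the flank. With only peaks called in at least 1 library, chosen after seeing the data, 3710 flanks and 1993 ratios over all genes passed the test in place of 5731 and 4591, fewer genes being tested, 3 of the 9 demethylase genes still tested had a lower flank, and the KDM2A flank came to 0.11. With a core of 1 kb the counts were 2990 and 2413, 2 of the 8 demethylase genes still tested had a lower flank, and the KDM6A flank came to 0.28. With an outer limit of 2 kb the KDM4B flank came to -0.067. The KDM2B ratio also lost its call without a variance trend (adjusted p = 0.0764), chosen after seeing the data. Pseudocounts, filters and the edgeR test changed no sign; without a filter 5 calls were lost.

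Leaving out each library in turn gave 21296 to 23524 called peaks, 12033 to 12341 gene sums, 10712 to 10907 cores, 5190 to 5515 flanks and 4227 to 4494 ratios, and the lone library was taken to vary as the others do. The counts of the demethylase genes stayed at 10, 9, 3 and 5, and their ratios at 8 to 9. Libraries with the same replicate number did not deviate together across peaks (correlation -0.027). With a single difference per group, this cannot show whether they were handled together. With a replicate block 24434 peaks, 12713 gene sums, 11252 cores, 5665 flanks and 4601 ratios passed, and no call on the demethylase genes changed. Sums over all consensus peaks are the sums reported, so that alternative gave no separate value. With 2 libraries per group small differences cannot be told from library spread, and without spike-in scaling absolute direction cannot be given.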
